A study of Mus musculus with 23 samples.

Results

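The genes described here had a higher level without Aire in both populations of medullary thymic epithelial cells (mTECs) that were sequenced, and 122 of 53402 counted genes met that description. They were selected on measured values. The mean in Aire knockout (KO) libraries had to be at least 2 times the mean in wild-type (WT) libraries in each population, every KO library had to lie above every WT library there, and the KO mean had to reach 5 CPM in either, where CPM is a count scaled to the total of its library. Mitochondrial genes were left out, and at most 300 genes were to be kept, a limit that was not reached. Of 15620 genes at that level, 0.781% were members. The same fold, separation and level were met by 646 genes in the first population and by 385 in the second, so that the members made up 18.9% and 31.7% of these genes. Of the members 85 have a gene name and 37 are unnamed gene models, and 84 are annotated as protein coding.

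Bulk RNA sequencing had been done on 23 libraries of thymic cells of C57BL/6 mice, sorted as live epithelium (EpCAM+, with no DAPI, CD45 or Ly51 stain). Cells high for MHC class II are called mTEChi and cells low for it mTEClo. KO mTEChi had 4 libraries and KO mTEClo 4, all from male mice, 2 of 5 weeks and 2 of 6 weeks in each. WT mTEChi had 7 libraries, 5 male and 2 female, 2 of them of 4 weeks and 5 of 5 weeks. WT mTEClo had 8 libraries, 5 male and 3 female, 5 of them of 4 weeks and 3 of 5 weeks. The labels give neither the construct of the knockout allele nor the number of animals behind a library, so p-values measure the spread between libraries, which may be technical.

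Aire is a nuclear protein of mTECs that is known for letting these cells transcribe genes of peripheral tissues, whose products are then shown to developing T cells. mTECs with much MHC class II hold most of the Aire in the thymus, while the MHC class II low population is mixed and includes precursors and cells past the Aire stage. Most genes discussed in connection with Aire fall when it is lost, and the members are the opposite case.

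The targeted gene followed the labels. Aire stood at 15.9 to 35.5 CPM in KO mTEChi and 776 to 938 CPM in WT mTEChi, and at 0 to 7.43 CPM in KO mTEClo and 19.99 to 129 CPM in WT mTEClo. Totals were 2528049 to 3106026 counts in KO mTEChi, 1602125 to 3231079 in WT mTEChi, 1639231 to 3938588 in KO mTEClo and 1628778 to 3883437 in WT mTEClo. The 6 libraries of under 2000000 counts were replicates 1 and 2 of WT mTEChi, KO mTEClo and WT mTEClo, and none was KO mTEChi. Of the 12 listed markers of mTECs, Epcam, Krt8 and Fezf2 did not pass between KO and WT in either population (edgeR, adjusted p under 0.05), Cd80 and Krt5 were lower in KO mTEChi, and Cldn3 and Cldn4 were higher there. In bulk samples more cells of a type and more RNA per cell cannot be told apart. Scaling by TMM factors in place of totals would move all log2 KO over WT values by 0.15 in mTEChi and by -0.02 in mTEClo.

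The members' fold, KO over WT, lay between 2.01 and 7.75 in mTEChi (median 2.65) and between 2.02 and 41.2 in mTEClo (median 3.59, n = 121). For 88 members it was larger in mTEClo and for 34 in mTEChi. These folds are the values the selection used and carry no test. Summed over the members, the level was 13129.8 ± 338 CPM (SD, n = 4) in KO mTEChi and 5033 ± 267 CPM (n = 7) in WT mTEChi. It was 2594 ± 203 CPM (n = 4) in KO mTEClo and 914 ± 71.2 CPM (n = 8) in WT mTEClo. The members as a sum were thus highest in KO mTEChi, and WT mTEChi lay above KO mTEClo. Over all 19310 genes that could be tested, edgeR's quasi-likelihood test called 25.7% higher and 28.0% lower in KO mTEChi, and 12.0% higher and 9.69% lower in KO mTEClo, each against WT. Since the members were chosen by this contrast, nothing is read from their own share.

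**Figure D1:**
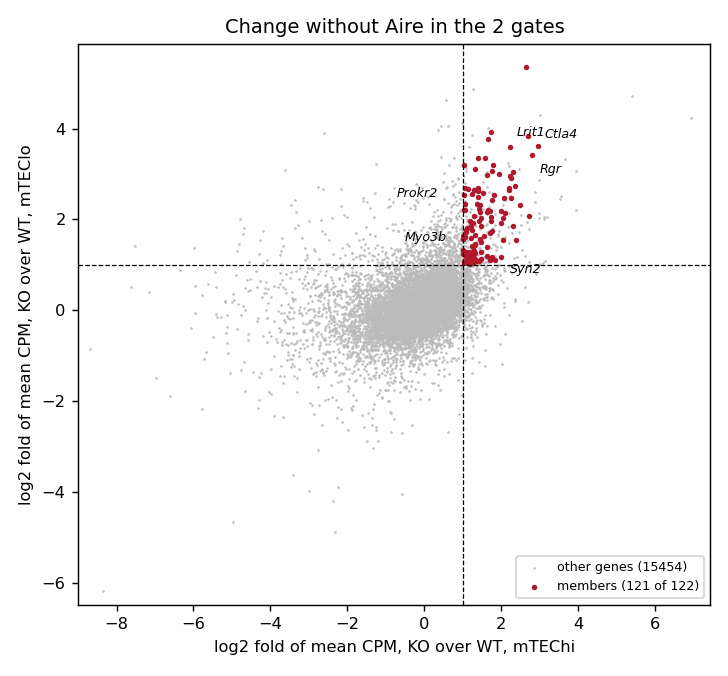
Each point is a gene with a KO mean of at least 5 CPM in either population and a count in all 4 groups; the x axis is the log2 fold of mean CPM, KO over WT, in mTEChi and the y axis the same in mTEClo, with dashed lines at the 2-fold limit. The members (red, 121 of 122) fill the upper right corner by selection, and 1 member without a count in WT mTEClo is not drawn.

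Members just inside the 2-fold limit were Crip3, a LIM protein (fold 2.01 in mTEChi and 3.096 in mTEClo), Dcxr, a carbonyl reductase (2.03 and 2.495), and Gsg1l, a partner of AMPA receptors (2.31 and 2.05). Just outside it were Htra4, a serine protease (1.995 in mTEChi and 2.92 in mTEClo) and Tspan33, a tetraspanin (1.99 and 2.49).

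Genes best known from immune cells made up 18 of the 85 named members, and their share among all tested genes was not determined. Under receptors, ligands and signalling 13 members were counted, with folds of 2.05 to 7.75 in mTEChi (median 2.47) and of 2.07 to 12.3 in mTEClo (median 3.76), and a further 5 were cytokines or their receptors. Grouping the members by role was done after their values were known and serves only to order them. Summed over these 18 genes, KO mTEChi held 2189 to 2262 CPM and WT mTEChi 780.2 to 897 CPM. KO mTEClo held 321 to 379.6 CPM and WT mTEClo 89.3 to 133 CPM. Within a population KO and WT sums could not overlap, by the selection. The sums of KO mTEClo and WT mTEChi did not overlap either.

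Ctla4, the inhibitory receptor that binds CD80 and CD86, had the highest smaller fold of all members, 7.75 in mTEChi and 12.3 in mTEClo. It had 85.05, 100.3, 169 and 139 CPM in KO mTEChi, against 10.2 to 20.6 CPM (median 16.1) in WT mTEChi. In the other population it had 10.1, 11.6, 14.7 and 24.9 CPM in KO mTEClo, against 0 to 3.33 CPM (median 1.05) in WT mTEClo. KO mTEClo reached the level of WT mTEChi, where the libraries of these groups overlapped. Both KO mTEChi libraries of 6 weeks were above both of 5 weeks. The gene (ENSMUSG00000026011) lies on chromosome 1, 60887000 to 60915832, plus strand, of GRCm38. Its 120 bases before the RefSeq start are shown because it leads the members. They lie at chr1:60908905-60909024 (GRCm38.p6, plus strand), inside the span of the annotated gene. Capitals mark GGAA, the core of sites for Ets factors, here read on the minus strand.
Ctla4: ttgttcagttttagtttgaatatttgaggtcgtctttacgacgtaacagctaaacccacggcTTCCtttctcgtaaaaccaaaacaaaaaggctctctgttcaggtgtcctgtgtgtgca
The motifs searched on both strands were TATAAA (the TATA box), the NF-kB motif, CCAAT (the CCAAT box), TGACTCA (the AP-1 motif), GGAA and CACGTG (an E-box), and no match of one overlaps another here. GGAA stands in 73.4% of all 32851 RefSeq windows of this length, so the match is a description of the sequence.

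Lag3, an inhibitory receptor that binds MHC class II, had 40.3, 49.6, 46.04 and 39.6 CPM in KO mTEChi, against 13.9 to 28.2 CPM (median 18.1) in WT mTEChi. It had 17.5, 14.03, 20.2 and 14.5 CPM in KO mTEClo, against 3.09 to 7.21 CPM (median 4.07) in WT mTEClo. Its KO mTEClo and WT mTEChi libraries overlapped. Tnfsf9 and Cd70 are ligands of the tumour necrosis factor family that costimulate T cells, and they are neighbours on chromosome 17 with 38239 bases between them. Tnfsf9 had 83.9, 89.96, 76.9 and 76.1 CPM in KO mTEChi, against 22.9 to 32.5 CPM (median 30.6) in WT mTEChi. Tnfsf9 also had 13.3, 12.8, 11.0 and 16.0 CPM in KO mTEClo, against 1.298 to 4.298 CPM (median 2.401) in WT mTEClo. All its KO mTEClo libraries stayed below all WT mTEChi libraries. Cd70 had 58.5, 44.8, 39.3 and 49.7 CPM in KO mTEChi, against 2.497 to 31.3 CPM (median 14.6) in WT mTEChi. Its WT mTEChi libraries were spread wide, with the 2 libraries of 4 weeks and under 2000000 counts at 2.50 and 7.25 CPM and 3 others at about 30 CPM. Cd70 had 4.25, 5.49, 4.28 and 6.09 CPM in KO mTEClo, against 0.258 to 3.69 CPM (median 1.02) in WT mTEClo.

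Beside these 4 members, the list of T cell costimulation and checkpoint genes holds 11 other genes that could be tested, of 18 counted in all. Of its 15 tested genes 9 were higher and 2 lower in KO mTEChi (median log2 change 0.64, against -0.01 over all tested genes). In KO mTEClo 6 were higher and the others did not pass (median 0.36, against 0.01). The 4 members are among the higher ones by selection. Icosl, a ligand of the receptor ICOS, averaged 679.8 ± 97.4 CPM in KO mTEChi and 393 ± 19.5 CPM in WT mTEChi. Pdcd1lg2, a ligand of PD-1, averaged 78.8 ± 11.7 CPM in KO mTEChi and 52.02 ± 6.405 CPM in WT mTEChi. Both passed in both populations (edgeR, adjusted p = 0.007 in mTEChi and 0.016 in mTEClo for Icosl). Cd80, a ligand of CTLA-4, was lower at 127 ± 16.4 CPM in KO mTEChi against 207 ± 11.2 CPM in WT mTEChi.

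H2-Oa encodes a chain of H2-O, which holds back peptide loading of MHC class II, and had 165, 144, 135 and 145 CPM in KO mTEChi, against 40.5 to 89.4 CPM (median 58.8) in WT mTEChi. H2-Oa also had 27.1, 21.96, 35.8 and 43.7 CPM in KO mTEClo, against 7.53 to 20.2 CPM (median 16.7) in WT mTEClo. Among 11 measured genes of MHC class II presentation 6 were higher in KO mTEChi (median log2 change 0.52) and 4 in KO mTEClo (median 0.30), and the others did not pass. The 4 genes higher in both were H2-Oa, its partner H2-Ob, and H2-DMa and H2-DMb1, the chains of the peptide exchanger that H2-O inhibits. The class II chains themselves did not pass in either population, with H2-Aa at 620.3 ± 43.3 CPM in KO mTEChi and 659 ± 109.7 CPM in WT mTEChi.

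Blk, a Src family kinase of B cells, had 92.96, 98.5, 66.0 and 62.5 CPM in KO mTEChi, against 15.9 to 23.5 CPM (median 18.7) in WT mTEChi. It had 4.25, 3.66, 3.67 and 1.78 CPM in KO mTEClo, against 0.333 to 1.23 CPM (median 0.826) in WT mTEClo, with folds of 4.13 in mTEChi and 4.11 in mTEClo. Of 20 counted genes of immune receptor signalling 18 could be tested. Of these, 7 were higher and 7 lower in KO mTEChi (median log2 change -0.18). In KO mTEClo 3 were higher and 1 lower (median 0.14). Higher in both were Blk, the B cell adaptor Blnk and the immune receptor Nfam1. Tlr9, the endosomal receptor for unmethylated CpG DNA, had 325, 319, 289.8 and 275 CPM in KO mTEChi, against 95.9 to 154 CPM (median 119) in WT mTEChi. Tlr9 also had 52.02, 56.1, 21.1 and 21.8 CPM in KO mTEClo, against 1.298 to 10.4 CPM (median 5.95) in WT mTEClo. The KO mTEClo libraries of 5 weeks held over 50 CPM of it and those of 6 weeks under 22 CPM, and since those of 5 weeks are also those of under 2000000 counts, age and library total cannot be told apart there. Batf3, a transcription factor that dendritic cells need, averaged 37.97 ± 12.2 CPM in KO mTEChi and 9.88 ± 1.903 CPM in WT mTEChi, and 2.32 ± 0.455 CPM in KO mTEClo and 0.290 ± 0.223 CPM in WT mTEClo. Dock2, an activator of Rac in leukocytes, averaged 331 ± 49.4 CPM in KO mTEChi and 143 ± 20.3 CPM in WT mTEChi. The immunoglobulin constant genes Iglc1 and Igkc averaged 27.3 ± 7.32 and 32.9 ± 5.62 CPM in KO mTEChi and 5.47 ± 1.11 and 11.1 ± 3.04 CPM in WT mTEChi, and Iglc1 has near-identical copies between which reads cannot be assigned with certainty.

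Of the cytokine members, Ccr7, the receptor for the chemokines CCL19 and CCL21, had 196, 185, 167 and 183 CPM in KO mTEChi, against 42.7 to 79.02 CPM (median 55.6) in WT mTEChi. Ccr7 also had 10.1, 8.54, 15.6 and 11.7 CPM in KO mTEClo, against 0.594 to 4.91 CPM (median 2.23) in WT mTEClo. Il21r, the receptor of interleukin 21, had 163, 181, 110.1 and 126 CPM in KO mTEChi, against 30.6 to 59.6 CPM (median 41.6) in WT mTEChi. The 5-week libraries of KO mTEChi were the higher pair. Il12a, the p35 chain of interleukin 12, averaged 122 ± 12.6 CPM in KO mTEChi and 41.9 ± 3.84 CPM in WT mTEChi, and 8.03 ± 1.93 CPM in KO mTEClo and 1.35 ± 1.02 CPM in WT mTEClo. Il13, a cytokine of type 2 immunity, averaged 185 ± 23.02 CPM in KO mTEChi and 83.4 ± 5.24 CPM in WT mTEChi, and 12.4 ± 4.73 CPM in KO mTEClo and 1.94 ± 1.47 CPM in WT mTEClo. Il9r, the receptor of interleukin 9, averaged 170.4 ± 21.6 CPM in KO mTEChi and 73.5 ± 12.2 CPM in WT mTEChi. All 5 cytokine members had a larger fold in mTEClo than in mTEChi, as did 88 of all 122 members, so this does not set them apart.

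Markers of immune cells were read beside these genes. The 9 B cell markers summed to 339 to 404 CPM in KO mTEChi and 229 to 261 CPM in WT mTEChi, and to 117 to 139 CPM in KO mTEClo and 90.9 to 168 CPM in WT mTEClo. Of 8 tested, 4 were higher and 2 lower in KO mTEChi and 3 higher and 1 lower in KO mTEClo. Pax5, Ighm and Cd79b were higher in both. Ms4a1, which encodes CD20, stood at 1.75 ± 0.652 CPM in KO mTEChi and 5.63 ± 2.11 CPM in WT mTEChi. Their part in the members' levels was not tested.

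The 12 markers of thymocytes and T cells summed to 63.1 to 93.4 CPM in KO mTEChi and 101 to 123 CPM in WT mTEChi, and to 11.6 to 23.4 CPM in KO mTEClo and 23.3 to 30.9 CPM in WT mTEClo. Of 6 tested, 4 were lower in KO mTEChi and 1 in KO mTEClo, and the others did not pass. Ptcra and Trbc1 were listed at 0 in all KO mTEClo libraries and Cd2 in all WT mTEClo libraries, where such levels are near the limit of counting. Cd3e, a chain of the T cell receptor complex with too few counts for the test, averaged 1.41 ± 0.623 CPM in KO mTEChi and 2.38 ± 0.983 CPM in WT mTEChi. In mTEChi this sum was thus lower in KO, while Ctla4, Lag3 and Ccr7 were higher, and its part in their levels was not tested. The 12 markers of dendritic cells and macrophages summed to 333 to 395 CPM in KO mTEChi and 317 to 388 CPM in WT mTEChi, and to 106 to 152 CPM in KO mTEClo and 39.7 to 72.03 CPM in WT mTEClo. Of 10 tested, 2 were higher in each population, Lyz2 and Cd68, and 7 were lower in KO mTEChi and 1 in KO mTEClo, while Siglech was listed at 0 in all KO libraries.

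**Figure D2:**
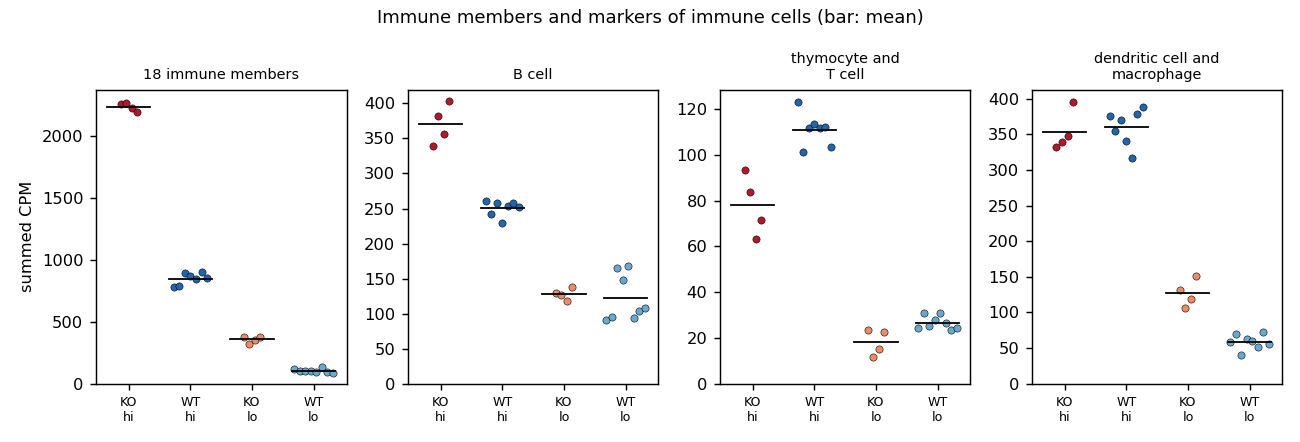
Summed CPM per library (points) and mean (bar) of the 18 immune members and of the marker lists of B cells, of thymocytes and T cells, and of dendritic cells and macrophages, in KO mTEChi, WT mTEChi, KO mTEClo and WT mTEClo. The sums of the immune members, where the gap of KO over WT follows from the selection, run from 2189 to 2262 CPM in KO mTEChi down to 89.3 to 133 CPM in WT mTEClo, while of the marker sums, which were not selected, that of T cells lies lower and that of B cells higher in KO than in WT mTEChi, and that of dendritic cells and macrophages lies higher in KO than in WT mTEClo.

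Growth factors, antagonists of morphogens and guidance molecules made up 7 members, with a median fold of 2.44 in mTEChi and 3.93 in mTEClo. Fgf10, a ligand for epithelial fibroblast growth factor receptors that the thymus needs for its growth, had 28.9, 22.95, 35.7 and 36.1 CPM in KO mTEChi, against 3.12 to 9.09 CPM (median 6.19) in WT mTEChi. Fgf10 also had 7.96, 4.88, 9.47 and 16.0 CPM in KO mTEClo, against 0 to 2.46 CPM (median 1.22) in WT mTEClo. The KO mTEClo libraries overlapped those of WT mTEChi. Nbl1, an antagonist of bone morphogenetic proteins, ran the other way between the populations, with means of 25.7 ± 3.65 CPM in KO mTEClo and 10.5 ± 1.95 CPM in WT mTEClo, and of 11.4 ± 2.72 CPM in KO mTEChi and 4.68 ± 2.31 CPM in WT mTEChi.

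Nrg1, a ligand of ErbB receptors, averaged 543 ± 15.9 CPM in KO mTEChi and 256 ± 13.1 CPM in WT mTEChi, and 100.2 ± 14.8 CPM in KO mTEClo and 43.9 ± 8.19 CPM in WT mTEClo. Sema6b, a semaphorin, and Unc5a, a netrin receptor, had folds of 2.32 and 2.29 in mTEChi and 3.03 and 3.93 in mTEClo, and Unc5a overlaps Hk3, whose fold was 3.09 and 2.19. Fam19a1, also called Tafa1, a secreted protein of the brain, had 101, 119.6, 168 and 140.2 CPM in KO mTEChi, against 14.5 to 27.5 CPM (median 19.3) in WT mTEChi. The model 1700123L14Rik lies inside it on the other strand and was a member too, and unstranded reads cannot be told apart there. Of 18 counted genes of Wnt, Fgf and Bmp signals 15 could be tested. Of these, 5 were higher and 6 lower in KO mTEChi (median log2 change -0.09). In KO mTEClo 8 were higher and 3 lower (median 0.38). Fgf10, the metabolic hormone Fgf21 and the stress cytokine Gdf15 were higher in both.

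Transcription and chromatin gave 10 members, with folds of 2.05 to 3.99 in mTEChi and 2.05 to 7.98 in mTEClo. Tbx15, a T-box factor of skeletal and skin development, had 165, 151, 216 and 225 CPM in KO mTEChi, against 43.1 to 53.1 CPM (median 47.4) in WT mTEChi. Tbx15 also had 23.9, 21.4, 32.7 and 49.5 CPM in KO mTEClo, against 5.34 to 9.87 CPM (median 6.996) in WT mTEClo. Hdac9, a class II histone deacetylase, averaged 492 ± 43.6 CPM in KO mTEChi and 195 ± 9.44 CPM in WT mTEChi, and 109 ± 28.3 CPM in KO mTEClo and 50.1 ± 6.18 CPM in WT mTEClo. Ovol3, of a family of epithelial zinc finger factors, had 36.6, 24.4, 36.98 and 41.1 CPM in KO mTEClo, against 10.4 to 16.1 CPM (median 12.9) in WT mTEClo. Ovol3 also had 5.93, 3.33, 5.15 and 5.05 CPM in KO mTEChi, against 0.619 to 3.32 CPM (median 1.87) in WT mTEChi. Its level was thus higher in mTEClo, and in mTEChi its lowest KO library lay barely above its highest WT library, 1.002 times as high.

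The retinoid and retina group was small and had high folds, 3.13 to 6.99 in mTEChi and 7.84 to 12.1 in mTEClo over 3 members. Rgr, an opsin of the retinal pigment epithelium and Müller cells, had 41.5, 57.01, 51.5 and 48.9 CPM in KO mTEChi, against 2.497 to 9.99 CPM (median 8.36) in WT mTEChi. It had 6.37, 0.610, 1.83 and 1.78 CPM in KO mTEClo, against 0 to 0.533 CPM (median 0.302) in WT mTEClo. Its mTEClo levels were near the limit of counting, and 1 KO mTEClo library held much of their mean. Lrit1, a leucine-rich repeat protein of photoreceptor synapses, had 34.02, 35.9, 47.97 and 43.9 CPM in KO mTEChi, against 4.37 to 12.6 CPM (median 8.12) in WT mTEChi. Lrit1 also had 5.31, 4.88, 1.22 and 2.29 CPM in KO mTEClo, against 0 to 0.890 CPM (median 0.154) in WT mTEClo. Lrat, which esterifies retinol, averaged 146 ± 40.99 CPM in KO mTEChi and 46.5 ± 11.95 CPM in WT mTEChi, and 6.75 ± 1.11 CPM in KO mTEClo and 0.862 ± 0.528 CPM in WT mTEClo.

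Rgr and Lrit1 are neighbours on chromosome 14. Rgr (chromosome 14, 37034909 to 37048964, minus strand) and Lrit1 (chromosome 14, 37054830 to 37064946, plus strand) are transcribed away from each other, with 5865 bases between them. The 120 bases before both RefSeq starts, chr14:37049015-37049134 (minus strand) and chr14:37054710-37054829 (plus strand) of GRCm38.p6, are shown because these adjacent genes were both selected. Capitals mark GGAA, and Lrit1 holds none of the 6 motifs in this window.
Rgr: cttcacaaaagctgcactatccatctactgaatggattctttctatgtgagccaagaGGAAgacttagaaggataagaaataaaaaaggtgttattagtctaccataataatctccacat
Lrit1: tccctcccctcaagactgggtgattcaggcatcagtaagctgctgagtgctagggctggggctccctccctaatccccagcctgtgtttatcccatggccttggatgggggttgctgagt
Of 14 counted genes of the retina and opsin list 7 could be tested. Listed at 0 in all KO mTEChi libraries were 5 of the 14, Rpe65, Rbp3, Opn1mw, Opn5 and Crx, and 0 in all WT mTEChi libraries. In mTEClo 3 were listed at 0 in KO and 2 in WT. Of the 7 tested, 2 were higher and 4 lower in KO mTEChi (median log2 change -0.97). In KO mTEClo 1 was higher, Rgr itself, while the others did not pass (median 0.60). The higher ones in KO mTEChi were Rgr and Opn3, an opsin found in many tissues. Rlbp1, the retinal carrier of the same cells as Rgr, was lower, at 2.08 ± 0.613 CPM in KO mTEChi and 11.2 ± 2.72 CPM in WT mTEChi.

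Synapse, channel and neural receptor genes gave 11 members, with a median fold of 2.51 in mTEChi and 2.75 in mTEClo. Prokr2, a prokineticin receptor, had 511, 495, 669.99 and 660.0 CPM in KO mTEChi, against 216 to 321 CPM (median 283) in WT mTEChi. Prokr2 also had 83.3, 50.6, 69.98 and 98.8 CPM in KO mTEClo, against 9.34 to 26.4 CPM (median 13.5) in WT mTEClo. Syn2, a synaptic vesicle protein, had 388, 391, 363 and 374 CPM in KO mTEChi, against 76.7 to 115 CPM (median 95.5) in WT mTEChi. It overlaps Timp4 on the other strand, which had 101 CPM on average in KO mTEChi and 33.9 CPM in WT mTEChi. Stac, an adaptor of voltage-gated calcium channels, averaged 99.6 ± 8.68 CPM in KO mTEChi and 21.7 ± 4.10 CPM in WT mTEChi, and 12.1 ± 3.19 CPM in KO mTEClo and 1.93 ± 0.810 CPM in WT mTEClo. Npsr1, the receptor of neuropeptide S, averaged 123 ± 11.2 CPM in KO mTEChi and 46.2 ± 10.1 CPM in WT mTEChi.

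Cacng7 and Cacng8 encode related subunits that modulate AMPA receptors and calcium channels, and lie on the same strand of chromosome 7 with 22461 bases between them. Cacng8 averaged 55.9 ± 7.58 CPM in KO mTEChi and 21.1 ± 6.15 CPM in WT mTEChi, and Cacng7 16.7 ± 4.02 CPM in KO mTEChi and 6.67 ± 1.76 CPM in WT mTEChi. In mTEClo both were scarce, Cacng8 at 3.13 ± 1.73 CPM in KO mTEClo and 0.510 ± 0.323 CPM in WT mTEClo and Cacng7 at 2.13 ± 0.659 CPM in KO mTEClo and 0.795 ± 0.526 CPM in WT mTEClo. Their 120 bases before the RefSeq starts, chr7:3332705-3332824 and chr7:3393922-3394041 (GRCm38.p6, plus strand), are set side by side because these adjacent genes are of 1 family, with CCAAT and GGAA in capitals.
Cacng7: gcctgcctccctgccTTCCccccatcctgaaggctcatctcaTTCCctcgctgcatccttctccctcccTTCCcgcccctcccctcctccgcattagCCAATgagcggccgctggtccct
Cacng8: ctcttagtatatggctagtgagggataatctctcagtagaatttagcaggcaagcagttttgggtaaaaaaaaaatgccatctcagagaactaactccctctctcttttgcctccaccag
CCAAT stands in 21.3% of all windows of this length. The Cacng7 window lies before the annotated gene, which starts at 3332955. The Cacng8 window lies inside its annotated gene, which starts at 3390683, so the 2 windows are not like regions. G or C made up 65.8% of the Cacng7 window and 41.7% of the Cacng8 window, and nothing is read from that difference.

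**Figure D3:**
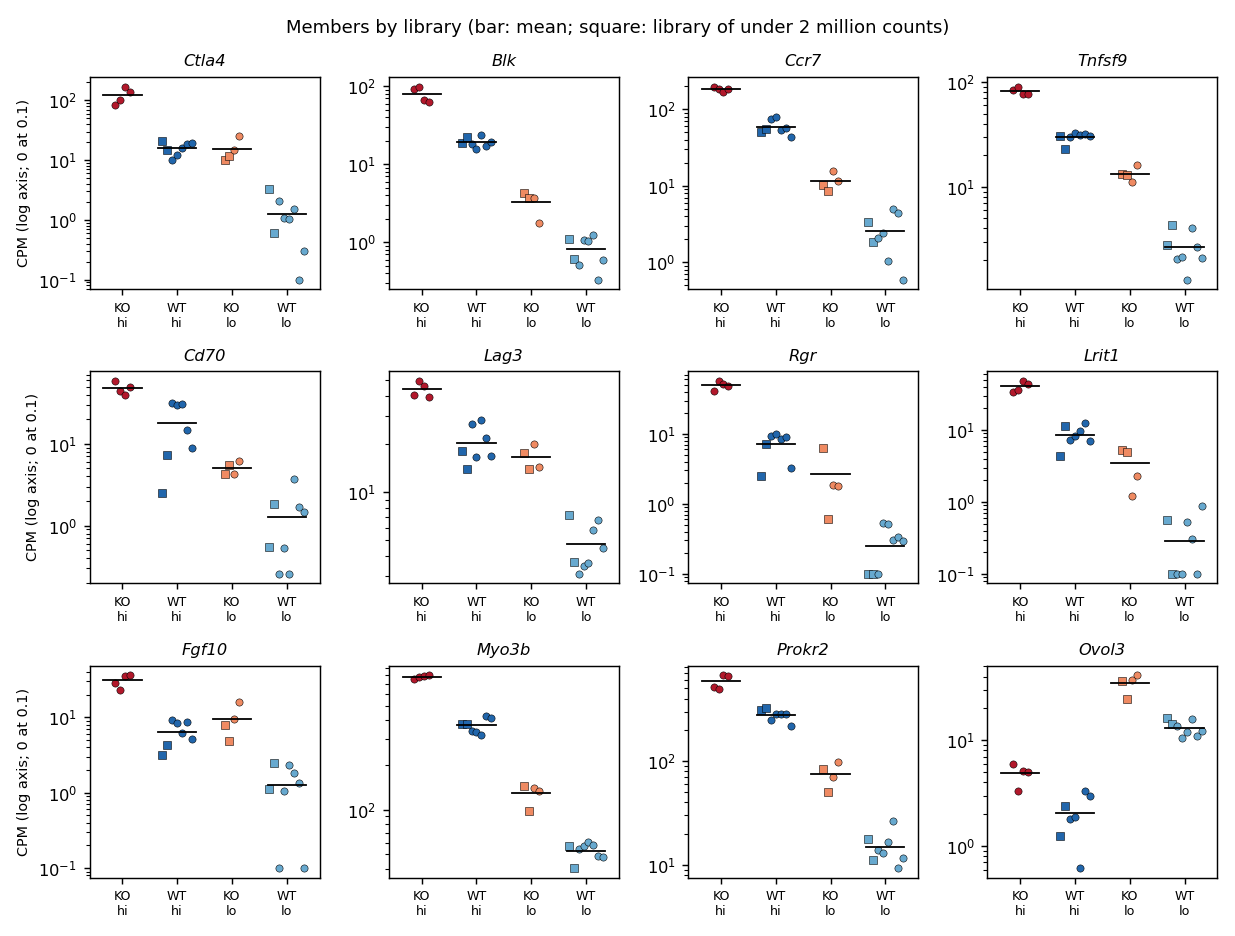
CPM of 12 members in each library, on a log axis where 0 is drawn at 0.1, for KO mTEChi, WT mTEChi, KO mTEClo and WT mTEClo (bar: mean; squares: the 6 libraries of under 2000000 counts). In mTEClo the level of 11 of them is lower than in mTEChi of the same genotype, and that of Ovol3 is higher.

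Enzymes, carriers and transporters gave 17 members, with a median fold of 2.77 in mTEChi and 2.96 in mTEClo. Several act on glycans. St6galnac3, a sialyltransferase, had 72.4, 69.2, 66.6 and 68.8 CPM in KO mTEChi, against 12.4 to 17.5 CPM (median 14.96) in WT mTEChi. B3galt5, a galactosyltransferase, averaged 402 ± 24.7 CPM in KO mTEChi and 145 ± 18.1 CPM in WT mTEChi, and Gal3st3, a sulfotransferase, 15.5 ± 5.43 CPM in KO mTEChi and 3.699 ± 1.78 CPM in WT mTEChi. Maoa, which breaks down monoamines, averaged 66.7 ± 10.1 CPM in KO mTEChi and 27.8 ± 3.96 CPM in WT mTEChi. Slc5a5, the iodide carrier of the thyroid, averaged 28.5 ± 3.72 CPM in KO mTEChi and 9.25 ± 1.32 CPM in WT mTEChi, and 19.9 ± 4.22 CPM in KO mTEClo and 8.66 ± 1.32 CPM in WT mTEClo. Ppp1r3c, which targets a phosphatase to glycogen, had folds of 4.01 in mTEChi and 3.77 in mTEClo.

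Of the remaining 17 protein members, Myo3b, a class III myosin, had 749, 776, 788 and 799.8 CPM in KO mTEChi, against 317 to 426 CPM (median 376) in WT mTEChi. Myo3b also had 145, 98.2, 139.96 and 133 CPM in KO mTEClo, against 40.5 to 60.2 CPM (median 55.7) in WT mTEClo. Its KO mTEChi libraries lay close together and above those of WT mTEChi. Zp2, an egg coat protein, averaged 300.2 ± 28.9 CPM in KO mTEChi and 97.1 ± 14.2 CPM in WT mTEChi. Cspg4, a membrane proteoglycan, averaged 167 ± 35.2 CPM in KO mTEChi and 40.3 ± 9.21 CPM in WT mTEChi, with the 5-week libraries of KO mTEChi above those of 6 weeks. Cpne2, a copine that binds membranes with calcium, averaged 314 ± 24.1 CPM in KO mTEChi and 112 ± 14.1 CPM in WT mTEChi. Rubcnl, which takes part in autophagy, had folds of 3.25 in mTEChi and 3.26 in mTEClo. S100a3, a calcium-binding protein, averaged 355 ± 35.98 CPM in KO mTEChi and 104 ± 11.02 CPM in WT mTEChi and overlaps S100a2, which ran the other way in mTEChi at 19.3 CPM in KO and 223 CPM in WT. Trp53cor1, a noncoding RNA known as a target of p53, averaged 19.1 ± 2.54 CPM in KO mTEChi and 6.08 ± 1.76 CPM in WT mTEChi.

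Levels of different genes can be set against each other only per length. Per kilobase of exon, the mean in KO mTEChi was highest for Crip3 at 186 CPM, against 92.6 CPM in WT mTEChi. It was 177 CPM for Sncg, gamma-synuclein, and 153 CPM for Il13. In KO mTEClo it was highest for Dcxr at 65.9 CPM, against 26.4 CPM in WT mTEClo, followed by the metallothionein Mt1 at 48.6 CPM and Ovol3 at 47.6 CPM.

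The 37 unnamed models had larger folds in mTEClo, with a median of 4.96 against 3.59 over all members, and a median of 2.69 in mTEChi. By annotation 17 members were lincRNAs, or 13.9% of members against 2.97% of tested genes, and 10 were models awaiting experimental checks (8.20% against 6.32%). The levels behind the largest folds in mTEClo were low. Gm8688, a pseudogene inside A330008L17Rik and named after its values were seen, had 39 counts in KO mTEClo and 2 in WT mTEClo, a ratio of pooled counts over pooled totals of 44.6 (exact 95% counting interval 11.5 to 381), where the fold of mean CPM was 41.2. The interval covers counting error only and is no support for a gene selected on this fold. Gm47792 had 11 counts in KO mTEClo and 0 in WT mTEClo, at least 8.38-fold higher by pooled counts against a floor of 3 counts over the group.

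In position, 26 of 122 members lay within 200 kb of another member, or 21.3%, against 4.52% of tested genes within 200 kb of a member. Besides the pairs above these were Cdh8, a cadherin, with A330008L17Rik (170 bases apart), and A330008L17Rik with Gm8688 inside it. Further ones were Dusp15, a phosphatase, with the forkhead gene Foxs1 (7788 bases apart), Fgf10 with Gm10732, and Slc5a5 with the phosphodiesterase Pde4c (131702 bases apart). Close together were also 3 models inside Dpp10, Gm37066, Gm37781 and Gm38263. The others were A530030E21Rik with Iglc1 (181453 bases apart), 4930428N03Rik with Gm47906 (45114 bases apart) and Gm20757 with 4930401A07Rik (25640 bases apart). Members were found on 18 chromosomes, with 15 on chromosome 1 (12.3% of members against 7.01% of tested genes) and 14 on chromosome 8 (11.5% against 5.12%). Neighbours such as the models inside Dpp10 on chromosome 1, or Gm8688 inside A330008L17Rik on chromosome 8, are not separate loci. For 60 members another annotated gene overlaps, and where reads carry no strand such counts are uncertain. Cd180, a receptor of the Toll-like family, lies inside Mast4, which averaged 352 CPM in KO mTEChi and 262 CPM in WT mTEChi, while Cd180 averaged 16.1 ± 3.62 CPM in KO mTEChi and 6.67 ± 1.88 CPM in WT mTEChi.

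The 2 populations were also compared within a genotype. The selection bears on this comparison through the level of 5 CPM, which 121 members met in KO mTEChi and 87 in KO mTEClo. The 35 members that met it in mTEChi only had to be higher there in KO. Their folds tie WT to KO, and all 34 of them that could be tested were higher in mTEChi in WT too. Ovol3, the 1 member that met it in mTEClo only, had to be lower in mTEChi in KO. The counts thus describe the members and support nothing more. Of 121 members that could be tested, 113 were higher and 3 lower in KO mTEChi than in KO mTEClo, with a median log2 change of 2.74. Over all tested genes 29.2% were higher and 28.0% lower. In WT, 112 of 121 were higher and 4 lower in mTEChi than in mTEClo, with a median log2 change of 2.77, where 36.7% of all tested genes were higher and 33.4% lower. The median over all tested genes was 0.00 in WT. Left out was Gm47782, which failed the count filter. Of the 87 members that met the level in KO mTEClo, 80 were higher and 3 lower in mTEChi in KO, and 78 higher and 4 lower in WT. Without the 6 libraries of under 2000000 counts the members higher in mTEChi were 114 in KO and 113 in WT.

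**Figure D4:**
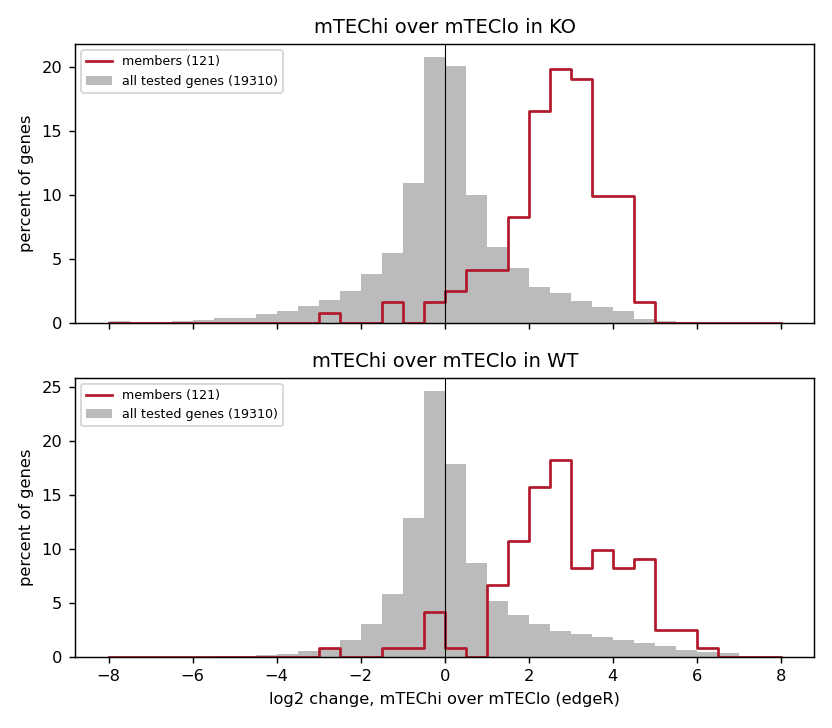
Log2 change, mTEChi over mTEClo, in KO (upper) and WT (lower), as the percent of 19310 tested genes (grey bars) and of 121 members (red line) in bins of 0.5. The members peak to the right of 0, with medians of 2.74 in KO and 2.77 in WT.

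By edgeR's quasi-likelihood test the log2 change of Lrat, mTEChi over mTEClo, was 4.51 ± 0.25 (SE), adjusted p = 3.8e-15 in KO and 5.83 ± 0.26 (SE), adjusted p = 2.9e-17 in WT. For Blk it was 4.80 ± 0.24 (SE) in KO and 4.46 ± 0.24 (SE) in WT. Blk met the level of 5 CPM in mTEChi only, so its direction in KO was set by the selection. Its folds in the populations were near equal, which ties its change in WT to that in KO. No p is given for it in either genotype. Ctla4 changed by 3.06 ± 0.26 (SE), adjusted p = 7.4e-11 in KO and by 3.62 ± 0.33 (SE), adjusted p = 1.8e-10 in WT. Myo3b was higher by 2.72 ± 0.11 (SE), adjusted p = 3.4e-18 in KO and by 2.73 ± 0.08 (SE), adjusted p = 2.3e-21 in WT. Whether a member's change differed between the genotypes is the same quantity as the difference of its folds, which the selection used, and was not tested.

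Ovol3, Nbl1 and Cd180 were lower in mTEChi than in mTEClo in both genotypes. By edgeR Ovol3 changed by -2.71 ± 0.23 (SE) in KO and by -2.72 ± 0.22 (SE) in WT. Ovol3 met the level of 5 CPM in mTEClo only, so its direction in KO was set by the selection. Its change in WT is tied to that in KO through its similar folds. No p is given for it in either genotype. Nbl1 changed by -1.04 ± 0.24 (SE), adjusted p = 5.1e-04 in KO and by -1.10 ± 0.22 (SE), adjusted p = 5.6e-05 in WT. Cd180 changed by -1.15 ± 0.27 (SE), adjusted p = 6.8e-04 in KO and by -0.69 ± 0.26 (SE), adjusted p = 0.019 in WT. Mast4, in which Cd180 lies, ran the same way. It averaged 448 CPM in KO mTEClo and 365 CPM in WT mTEClo, against 352 CPM in KO mTEChi and 262 CPM in WT mTEChi. The part of Mast4 reads in the counts of Cd180 was not tested. Frem2, a basement membrane protein, was higher in mTEChi in KO, at 0.45 ± 0.14 (SE), adjusted p = 0.0077, and lower in WT, at -0.45 ± 0.12 (SE), adjusted p = 0.0016. This change of sign is the difference of its folds, which the selection used, and was not tested. These genes also stood out by level. In 9 of 122 members every KO mTEClo library lay above every WT mTEChi library, against 21.5% of all 15620 genes at the level. Among these 9 were Ovol3, Nbl1, Cd180, Frem2, Ndufa11, Slc5a5, Tmem203 and Gsg1l. In 64 of 122 members every KO mTEClo library lay below every WT mTEChi library, against 20.6% of all genes at the level. The selection bears on this too, since 35 members met the level of 5 CPM in KO mTEChi only and averaged less in KO mTEClo.

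**Figure D5:**
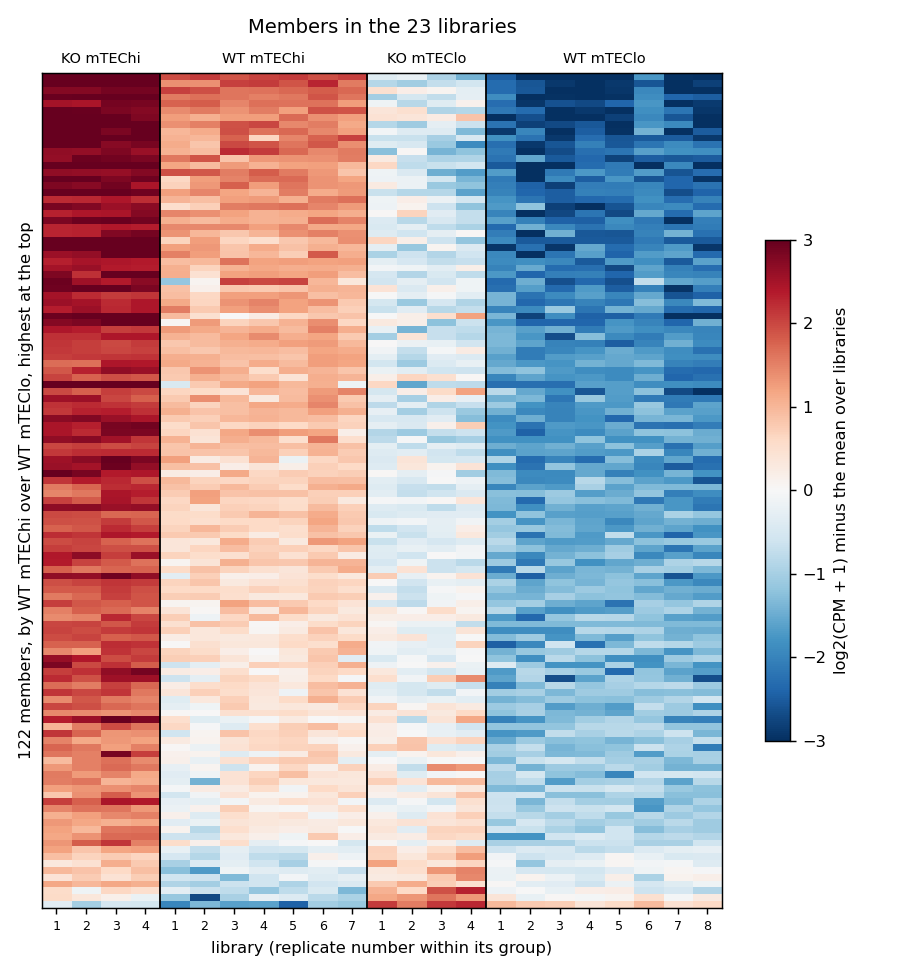
Log2(CPM + 1) of the 122 members (one per line) in the 23 libraries, minus each gene's mean over libraries, in KO mTEChi, WT mTEChi, KO mTEClo and WT mTEClo; genes are ordered by WT mTEChi over WT mTEClo. Most are highest in KO mTEChi and lowest in WT mTEClo, and the few lines at the bottom, Ovol3 among them, are higher in mTEClo.

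All KO libraries were male and older on average than WT libraries, so age and sex were read within a group. Between 6 and 5 weeks in KO mTEChi (2 libraries each, edgeR with terms for sex and for the 6 libraries of low total), 7 of 121 members were higher and 4 lower, where 5.39% of all tested genes were higher and 6.29% lower. Ctla4 had 169 and 139 CPM at 6 weeks and 85.0 and 100.3 CPM at 5 weeks, a log2 change of 0.68 ± 0.19 (SE), adjusted p = 0.021. Lrat had 183 and 179 CPM at 6 weeks and 108 and 112 CPM at 5 weeks (0.67 ± 0.14 (SE), adjusted p = 0.0021). Tbx15 was higher at 6 weeks too (0.43 ± 0.12 (SE), adjusted p = 0.013), as were 4 unnamed models, led by Gm45516 (0.84 ± 0.14 (SE), adjusted p = 2.1e-04). Lower at 6 weeks were Blk (-0.62 ± 0.16 (SE), adjusted p = 0.01), Cspg4 (-0.57 ± 0.15 (SE), adjusted p = 0.012), Dusp15 (-0.44 ± 0.14 (SE), adjusted p = 0.034) and Il21r (-0.60 ± 0.19 (SE), adjusted p = 0.048). With DESeq2 the counts were 4 higher and 1 lower. With only 1 library left at an age, the calls were fewer: 3 were higher without replicate 1, 2 or 3 of KO mTEChi, and 0 were lower without replicate 1, 3 or 4 and 1 without replicate 2. Without replicate 3 or 4 of KO mTEClo 7 were lower.

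Between 5 and 4 weeks in WT mTEClo, 3 of 121 members were higher and 0 lower (at an unadjusted p under 0.05, 18 higher and 10 lower), where 2.33% of all tested genes were higher and 1.34% lower. They were Tlr9 (1.35 ± 0.33 (SE), adjusted p = 0.018), Nkx6-2, a homeobox factor of oligodendrocytes (1.02 ± 0.29 (SE), adjusted p = 0.045), and H2-Oa (0.79 ± 0.23 (SE), adjusted p = 0.048). Tlr9 had 10.4, 8.002 and 4.45 CPM in the WT mTEClo libraries of 5 weeks and 1.30 to 8.31 CPM in the 5 of 4 weeks, and these ranges overlapped. The fit weighs sex and library total beside age, and at an adjusted p under 0.01 none of these 3 calls held. Of members higher, 0 were left without replicate 5, 6 or 7 of WT mTEClo, and 1 without its replicate 4 or 8 or without replicate 1 or 2 of WT mTEChi or of KO mTEChi. DESeq2 gave 3 higher and 0 lower. Between females and males in WT, 0 members were higher and 0 lower by edgeR and by DESeq2 (at an unadjusted p under 0.05, 3 and 8 by edgeR), with 0.0155% and 0.0259% over all tested genes.

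Of the members 1 was higher and 0 lower in the 6 libraries of under 2000000 counts than in the others (5 and 7 at an unadjusted p under 0.05 by edgeR, 2 and 1 by DESeq2), against 1.09% and 0.414% of all tested genes. It was Npsr1, whose call was lost without replicate 1, 3 or 4 of KO mTEClo or 2 or 3 of WT mTEChi (0.66 ± 0.16 (SE), adjusted p = 0.024). Within these libraries the fold in mTEClo was at least 2 for 99 of 115 members with a count in WT, with a lowest value of 1.32. In the other mTEClo libraries it was at least 2 for 109 of 121, with a lowest value of 1.60. In mTEChi without the 2 such WT libraries it was at least 2 for 110 of 122, and among males of 5 weeks for 98 of 122, with lowest values of 1.79 and 1.43. None could fall under 1, since the selection set every KO library above every WT library.

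Among lists without a member, of 20 measured genes of RANK, CD40 and NF-kB signalling, 12 were higher and 2 lower in KO mTEChi (median log2 change 0.40) while in KO mTEClo 1 was lower and the others did not pass (median 0.10). Of 13 counted antigens often cited as Aire-dependent 12 could be tested. Of these, 11 were lower in KO mTEChi and the other did not pass. In KO mTEClo 1 was higher and 4 lower. Of 18 interferon-stimulated genes, 2 were higher and 14 lower in KO mTEChi and all 18 lower in KO mTEClo. The 10 markers of cortical epithelium (cTEC) summed to 709 to 883 CPM in KO mTEClo and 459 to 569 CPM in WT mTEClo, which did not overlap, and 8 of 10 were higher there while the other 2 did not pass. In mTEChi the sums were 803 to 906 CPM in KO and 796 to 903 CPM in WT, with 3 higher and 4 lower. The 10 fibroblast markers summed to 206 to 231 CPM in KO mTEChi and 317 to 483 CPM in WT mTEChi, and to 349 to 433 CPM in KO mTEClo and 539.7 to 663 CPM in WT mTEClo, lower in KO without overlap in both. Of 8 tested, 1 was higher and 5 lower in KO mTEChi, and 2 higher and 1 lower in KO mTEClo. The 10 endothelial markers summed to 218 to 285 CPM in KO mTEChi and 238 to 325 CPM in WT mTEChi, and to 163 to 231 CPM in KO mTEClo and 168 to 223 CPM in WT mTEClo, with overlap in both. The part of these cell types in the members' change was not tested.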

How the data were processed

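Libraries were made from total RNA by a modified RamDA-seq with Tn5 tagmentation, which marks no strand, per the labels' protocols. The authors deposited whole-number counts for 53402 Ensembl genes in 23 libraries, with a second table of normalized values (signal) for 20236 genes. These deposited signal values equal count over a factor per library of 0.925 to 1.05 of the total. The submitters' processing notes name, with no role or order, the mm10 build, HTSeq 0.11.2, STAR 2.7.3a, fastp 0.20.0, Picard 2.21.1, SAMtools 1.9 and edgeR. All IDs matched the GENCODE annotation of GRCm38.

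CPM was computed from column totals. edgeR 4.0.16 (R 4.3.3) was fitted to all 23 libraries with group and sex after filterByExpr with a minimum count of 10 and TMM scaling, with the quasi-likelihood test and Benjamini-Hochberg adjustment over 19310 genes at 0.05. For age, terms for age within group and for the 6 libraries of under 2000000 counts were added. DESeq2 1.42.0 was an alternative. The fits were tested on simulated data.

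Members and lists were chosen with earlier results of these data known. Genes were named by a rule on the size of the smaller fold, on level, on list membership, on the tests and on position. Members named outside it were chosen after their values were seen: Igkc, Il12a, Il13, Il9r, Zp2, Maoa, Sncg, Mt1, Sema6b, Unc5a, Ndufa11, Tmem203 and the unnamed models. RefSeq promoters (GRCm38.p6) matched 71 of 122 members and 13113 of 19310 tested genes. The median ratio of observed to expected CG pairs was 0.37 in 88 windows of members and 0.68 in 16623 windows of tested genes. Over all 32851 promoter windows it was 0.38. These differences were not tested. Intervals and floors (3 counts) cover counting error only, and PCR copies are not independent molecules. Same-numbered libraries were correlated between groups but not set against differently numbered ones, which cannot show whether replicate numbers pair libraries. The main fits treat the libraries as unpaired. Some genes that the naming rule picks are not reported here.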

Additional observations from a re-analysis of the deposited data

Results flagged for a closer look

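Of 208 sets of values, one for each named gene reported here in each group, 10 held a library far from the rest of its group, by a test that flags about 1 in 20 by chance. Replicate 2 of WT mTEChi, a library of under 2000000 counts, was apart for 3 genes. It was low for Stac at 13.3 CPM (others 21.2 to 25.9) and for Tnfsf9 at 22.9 CPM (others 29.8 to 32.5), and high for Cdh8 at 53.1 CPM (others 27.6 to 38.2).

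In WT mTEClo, replicate 1 had 1.66 CPM of Gal3st3 (others 0 to 0.779) and replicate 6 had 3.69 CPM of Cd70 (others 0.258 to 1.84). Replicate 2 had 4.91 CPM of Npsr1 (others 1.56 to 2.77) and 6.75 CPM of Htra4, which lies just outside the 2-fold limit (others 2.401 to 4.30). In KO mTEClo, replicate 1 had 20.2 CPM of Npsr1 (others 8.25 to 9.76) and replicate 2 had 15.9 CPM of Pde4c (others 5.195 to 6.09). In KO mTEChi, replicate 2 had 22.95 CPM of Slc5a5 (others 29.9 to 30.7).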

How the results depend on the processing

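The number of genes that met the selection was 122. It was 218 without the 6 libraries of under 2000000 counts (100 of the 122 among them), 178 with only males of 5 weeks (80 of the 122 among them), 37 at a 3-fold limit, 300 where groups may overlap, which is the most the selection keeps (312 genes had the fold in both populations), and 118 to 153 with each library left out, highest without replicate 2 of KO mTEClo. Over all genes, KO against WT mTEClo gave 1228 higher and 1012 lower at an adjusted p under 0.01. Leaving out each library gave 4432 to 5077 higher and 5069 to 5807 lower in mTEChi and 1747 to 2514 higher and 1379 to 1961 lower in mTEClo. Members higher and lower in mTEChi than in mTEClo were 112 to 113 and 4 to 5 in WT, and 112 to 115 and 3 to 3 in KO. Between 6 and 5 weeks in KO mTEChi, DESeq2 gave 4 higher and 1 lower, an adjusted p under 0.01 gave 4 and 0, and leaving out a library 3 to 8 and 0 to 7. Between 5 and 4 weeks in WT mTEClo, no filter on low counts gave 5 higher and 3 lower, 0.01 gave 0 higher, and leaving out a library 0 to 4 and 0 to 1. For the 6 libraries of low total, no filter gave 2 and 2, DESeq2 2 and 1, 0.01 gave 0 higher, and leaving out a library 0 to 2 and 0 to 1. For sex it stayed at 0 and 0. With the replicate number as a block, KO against WT gave 4803 higher and 5229 lower in mTEChi and 2257 and 2022 in mTEClo, the populations 112 and 4 in WT and 114 and 3 in KO, 5 against 4 weeks 3 and 1, and the 6 libraries 0 and 0. Of the 3 members called higher at 5 weeks, the block kept 1, H2-Oa, and DESeq2 kept 2, Tlr9 and H2-Oa. Correlations of same-numbered libraries ran between -0.193 and 0.202, and the block could not be fitted for 6 against 5 weeks. Of 1479 recomputed folds of named members, 54 moved by more than the spread between replicates and 11 by over 1.5 times. Of 646 recomputed tests, 72 no longer passed. Among these tests no direction turned, and for the folds the selection fixes the direction. Folds within library classes and among males of 5 weeks were added after seeing the data. Counts near 0 in WT mTEClo limit the folds there, and all KO libraries were male.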
